A study of Schizosaccharomyces pombe with 4 samples.

Results

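The 59 array genes described here were taken from the array's own descriptions, as those that name sterols, squalene, fatty acids, acyl-CoA, phospholipids, phosphatidyl or phosphatidic compounds, or sphingolipids. They are 59 of 4997 array genes and stand for 58 loci, because lanosterol synthase is split into 2 overlapping features. A further gene matched a word but was left out because its description names gpi. The choice used words alone and no measured value. It takes in more than lipid enzymes: 6 features make or carry the glycolipid anchor of surface proteins, and some kinases are called phosphatidylinositol kinases from sequence similarity alone.

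Messenger RNA was measured in Schizosaccharomyces pombe, fission yeast, in a wild-type strain (FY12806) and in a strain deleted for red2 (SP744), with 2 arrays of each. Both strains grew logarithmically at 30 °C in YEA, a rich medium with 0.5% yeast extract, 3% glucose and 75 mg/L adenine. Each genotype is represented by 1 strain, and the labels do not tell whether a group's arrays stem from different cultures. The p-values therefore measure the spread between arrays, which may be technical. One label of deletion replicate 2 names red3, while its title and strain label name red2.

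Values are log2 of the intensity that the authors deposited, averaged over the 2 blocks each gene has on an array. Across genes, arrays of a group correlated with r = 0.997 in wild type and 0.996 in the deletion, against 0.934 to 0.945 between groups. A feature of unknown function on chromosome I, 2603271 to 2604926, was at 14.9 and 15.1 in the wild type against 5.39 and 4.75 in the deletion, but no table used here ties it to the name red2. Array names share a number within each group and differ between groups, so whatever that number marks cannot be told apart from genotype. The top of the scale lies near log2 16, where differences can be compressed, and precision is limited by having few arrays.

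Fission yeast makes ergosterol, the sterol of fungal membranes, from acetyl-CoA by way of mevalonate, squalene and lanosterol. Fatty acids are built by fatty acid synthase, desaturated, activated as acyl-CoA and joined to glycerol. From the resulting phosphatidic acid, CDP-activated lipids give phosphatidylserine, phosphatidylinositol and the precursors of cardiolipin. Phosphatidylserine can be decarboxylated to phosphatidylethanolamine, which is methylated to phosphatidylcholine. Phosphorylated forms of phosphatidylinositol mark membranes for traffic and signalling.

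Lipid genes did not move as a block when red2 was absent. Of the 59 features, 20 were higher in the deletion, 12 were lower and 27 did not pass the test (limma, Benjamini-Hochberg adjusted p under 0.05 over all array genes). Of all array genes, 34% were higher and 29.8% were lower, and for the lipid genes the shares were 33.9% and 20.3%. Their median log2 fold change was 0.04, against 0.01 over all array genes. The size of the change was typically small, with a median of 0.21 regardless of sign, against 0.26 over all array genes. The log2 values of the groups did not overlap for 49 of the 59, a share of 83.1% against 84.6% on the whole array.

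A single lipid gene was at least 2-fold higher without overlap and 0 were at least 2-fold lower, where 2.72% and 2.54% of all array genes were. The changes ran from -0.89 for a subunit of the glycolipid anchor pathway to 1.14 for a phosphatidylserine decarboxylase. Fold change went with gene length, measured from start to end, across the 59 features (Spearman rho = 0.46) as across all array genes (0.44). Genes on an array share its RNA and its processing and are not independent replicates, so these are descriptions. Because fold change went with gene length, a length-adjusted value is given beside most of the changes that passed. It comes from a repeat of the fit after the trend with gene length was taken out of each array. The cause of the trend was not tested.

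**Figure D1:**
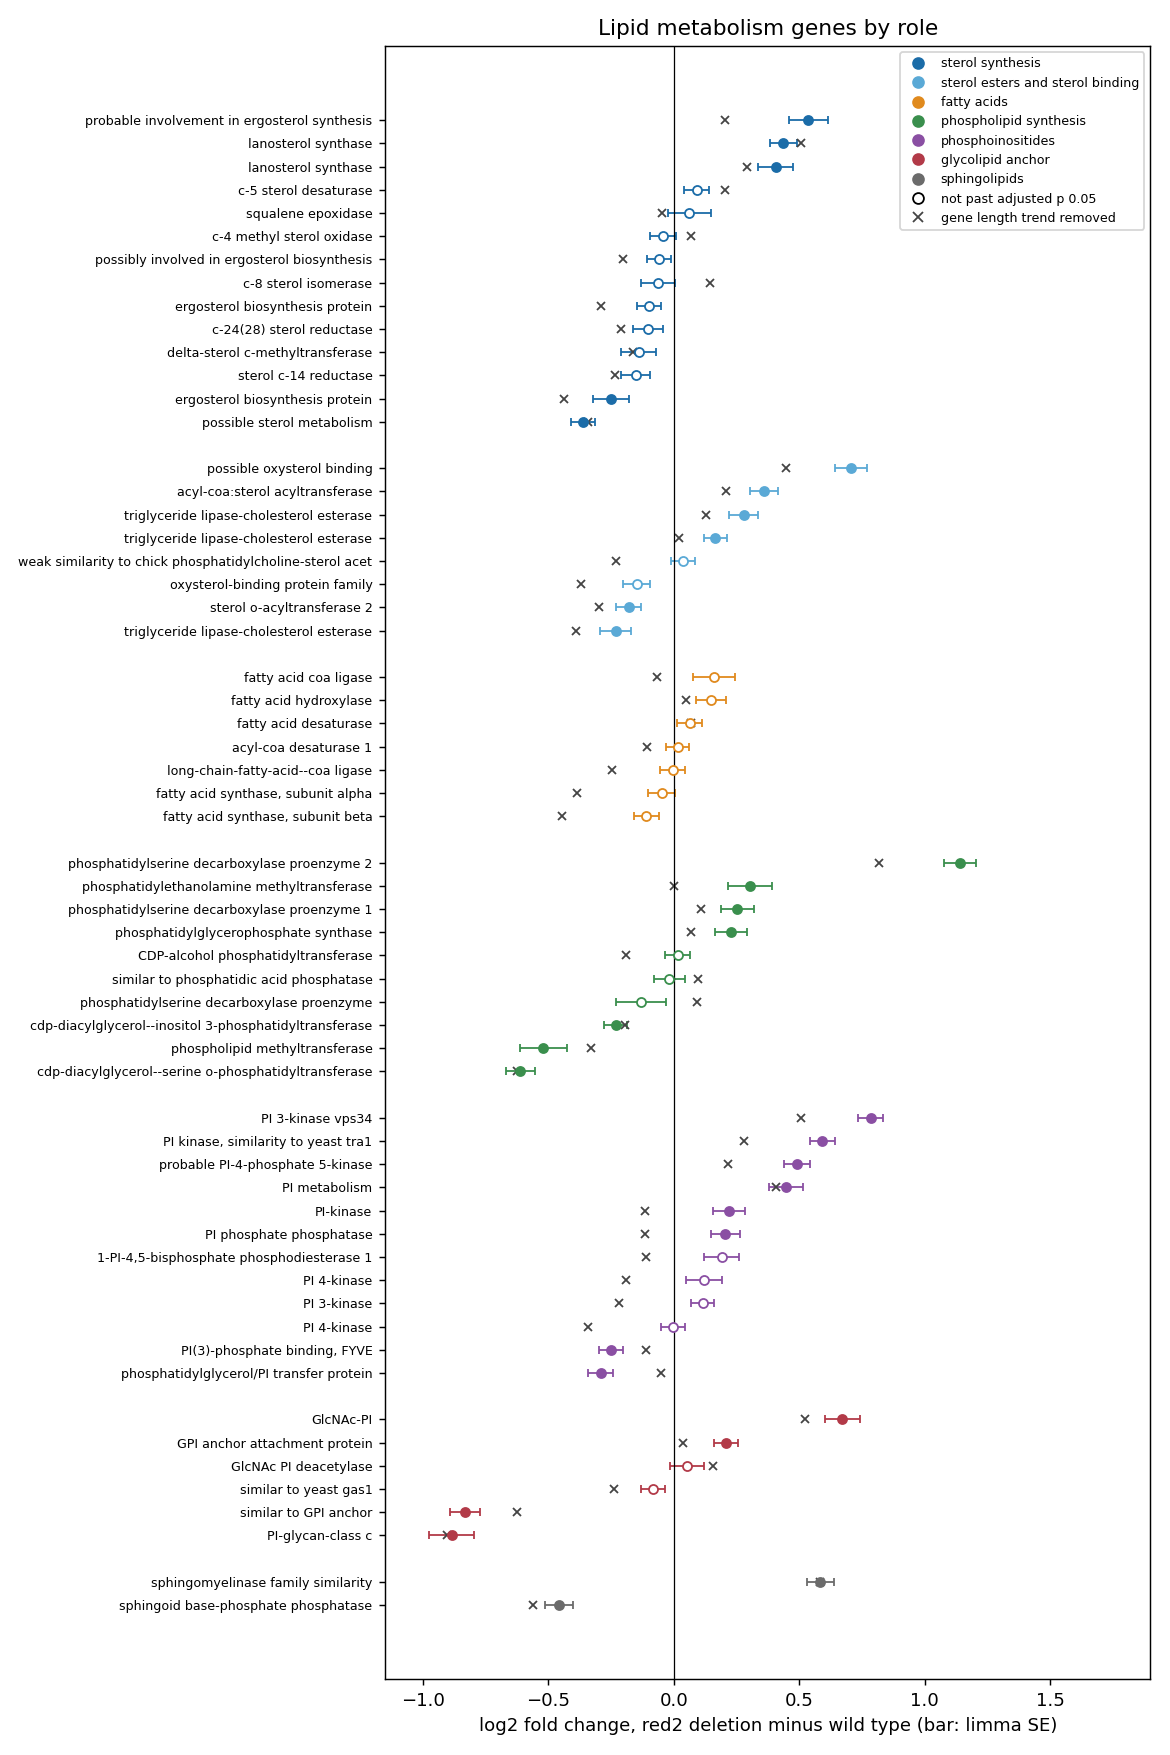
Log2 fold change of all 59 lipid features, red2 deletion minus wild type, with limma's standard error as bars; filled points passed the test (2 arrays per group), open points did not, and crosses are the length-adjusted values. The 7 fatty acid features all lie between -0.11 and 0.16, while the phospholipid group runs from -0.61 to 1.14.

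Phospholipid synthesis held the highest rise of all 59 features, beside a fall in the enzyme of the preceding step. Phosphatidylserine decarboxylase proenzyme 2, which turns phosphatidylserine into phosphatidylethanolamine, rose 2.20-fold. Its gene lies on chromosome I, 3006637 to 3009869, in the coordinates of the deposited table, for which no source used here names a build. The log2 intensity was 12.78 and 12.94 in wild type and 14.00 on both deletion arrays. The groups lay far apart, and the change was 1.14 ± 0.07 (limma SE, 2 arrays per group, adjusted p = 7.92e-05). It was 1.12 in the first block and 1.16 in the second, and 0.82 after length adjustment (adjusted p = 0.000137).

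The array carries other features described as this enzyme. Phosphatidylserine decarboxylase proenzyme 1 stood at 14.20 and 14.22 in the wild type against 14.54 and 14.39 in the deletion. It rose by 0.25 ± 0.07 (limma adjusted p = 0.0165), but not after length adjustment (0.11, adjusted p = 0.183). The third, described without a number and only 610 bp long, stood at -0.13 ± 0.10 and did not pass, with overlapping groups. It passed as lower without deletion replicate 2. The proenzyme 1 call was also lost with the second block alone and without wild-type replicate 1.

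The enzyme that makes phosphatidylserine fell, while 2 of the 3 decarboxylase features rose. CDP-diacylglycerol-serine O-phosphatidyltransferase (chromosome III, 1793499 to 1794621) stood at 14.92 and 14.96 in the wild type against 14.27 and 14.39 in the deletion. Both deletion arrays were below both wild-type arrays, a 1.53-fold decrease, or -0.61 ± 0.06 on the log2 scale (limma adjusted p = 0.000383). The 2 blocks gave the same size, -0.61 each, and the length-adjusted value was -0.62.

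Of the methyltransferases that turn phosphatidylethanolamine into phosphatidylcholine, one fell and the other rose, the latter not after length adjustment. The feature described as phospholipid methyltransferase (chromosome II, 978045 to 978765) stood at 15.04 and 15.00 in wild type. In the deletion it stood at 14.37 and 14.64, a log2 change of -0.52 ± 0.09 (limma adjusted p = 0.00387). Its deletion arrays differed by more than its wild-type arrays, but both were lower, and the length-adjusted value was -0.33. Phosphatidylethanolamine methyltransferase (chromosome II, 3905139 to 3907856) rose by 0.30 ± 0.09, from 14.92 and 14.97 to 15.38 and 15.13 (adjusted p = 0.0241). That rise was gone after length adjustment, where the log2 fold change was -0.0004, and did not pass with the second block alone.

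Enzymes of the other phospholipid branches moved less. CDP-diacylglycerol-inositol 3-phosphatidyltransferase, which makes phosphatidylinositol, fell from 15.01 and 15.03 to 14.79 on both deletion arrays (-0.23 ± 0.05, limma adjusted p = 0.0064). Its length-adjusted value was -0.20, and the call was lost with the first block alone and without wild-type replicate 2. Phosphatidylglycerophosphate synthase, described as the first enzyme of cardiolipin synthesis, rose by 0.23 ± 0.06 (adjusted p = 0.0216). Its length-adjusted value, 0.07, did not pass. The call was lost too with arrays centred on their median, with the first block alone, and without wild-type replicate 1 or deletion replicate 1.

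A CDP-alcohol phosphatidyltransferase of unstated substrate (0.02 ± 0.05) and a feature similar to phosphatidic acid phosphatase (-0.02 ± 0.06), the enzyme class that makes diacylglycerol, did not pass. The former was lower after length adjustment (-0.19, limma adjusted p = 0.0177). In all, 4 of the 10 features of phospholipid synthesis were higher and 3 were lower, against 34% and 29.8% of all array genes. Their median log2 fold change was -0.0004. After length adjustment 1 was higher and 4 were lower, against 28.6% and 35.2% of all array genes.

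**Figure D2:**
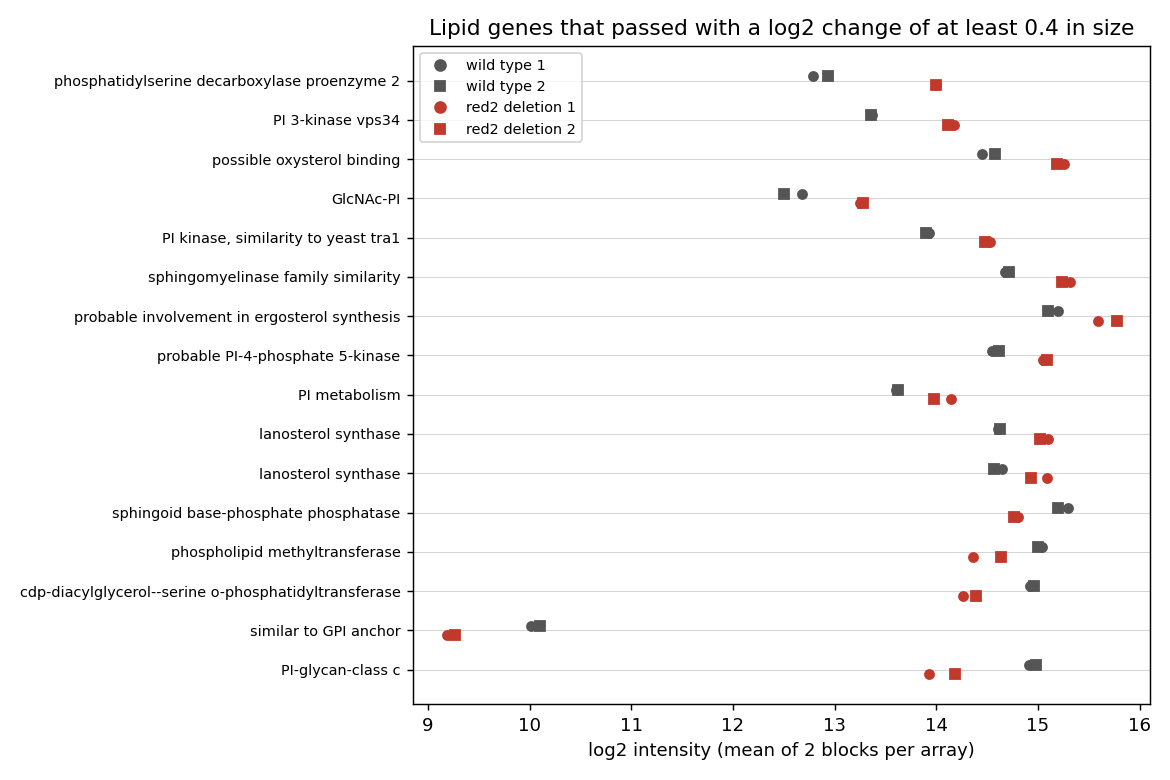
Log2 intensity on each of the 4 arrays for the 16 lipid features that passed the test with a log2 fold change of at least 0.4 in size, ordered from the highest change to the lowest. In each of the 16, both deletion arrays lie on the same side of both wild-type arrays, 11 above and 5 below.

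In sterol synthesis, most steps did not pass the test, and among features with a named enzyme activity lanosterol synthase was the one that rose. Lanosterol synthase closes oxidised squalene into the ring system of all later sterols. Its features overlap on chromosome I, at 2284963 to 2286362 and 2286307 to 2287278, share a Swiss-Prot entry and count as 1 locus. The first stood at 14.65 and 14.57 in the wild type against 15.09 and 14.94 in the deletion. The second stood at 14.61 and 14.63 against 15.10 and 15.02. Both features were higher on both deletion arrays, by 0.41 ± 0.07 (limma adjusted p = 0.00319) and 0.44 ± 0.05 (adjusted p = 0.0008), or 1.33-fold and 1.35-fold. The length-adjusted values were 0.29 and 0.51, and both passed.

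A longer gene described only as probably involved in ergosterol synthesis (chromosome II, 1687912 to 1692215, 4304 bp) rose 1.45-fold. It went from 15.20 and 15.10 to 15.59 and 15.78, a change of 0.54 ± 0.08 (limma adjusted p = 0.00166). Its length-adjusted value of 0.20 did not pass (adjusted p = 0.0765). With the length and signal trends removed together it passed (0.41, limma adjusted p = 0.00425). The call was kept in 15 of 16 alternatives.

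Lower values were found for 2 features of sterol synthesis. A hypothetical protein with possible sterol metabolism (chromosome I, 1884716 to 1885780) fell from 12.41 and 12.43 to 12.06 on both deletion arrays, a log2 change of -0.36 ± 0.05 (limma adjusted p = 0.00107), or -0.34 length-adjusted. A gene on chromosome II, 478034 to 479869, described as an ergosterol biosynthesis protein, stood at 15.67 and 15.70 in the wild type against 15.34 and 15.53 in the deletion (-0.25 ± 0.07, adjusted p = 0.0247). Its length-adjusted value was larger in size, at -0.44. Its blocks differed, at -0.07 and -0.42, and the call was lost with the first block alone and without wild-type replicate 2.

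The other 9 features of the group did not pass. Squalene epoxidase, which oxidises squalene and is the target of allylamine antifungals, stood at 0.06 ± 0.09. The C-4 methyl sterol oxidase, which removes methyl groups from the ring, stood at -0.04 ± 0.05. The C-8 isomerase, which moves a double bond of the ring, stood at -0.06 ± 0.07. The C-14 reductase, which removes another, was close to the threshold, at -0.15 ± 0.06 (limma adjusted p = 0.0558). It passed as lower in 8 of 16 alternatives, among them quantile normalization (-0.21), length adjustment (-0.23, adjusted p = 0.013) and the fit without deletion replicate 1 (-0.20). The C-5 desaturase, which adds a double bond late in the pathway, stood at 0.09 ± 0.05. The delta-sterol C-methyltransferase, which adds the methyl group typical of fungal sterols, stood at -0.14 ± 0.07, and the C-24(28) reductase, which acts last in the pathway, at -0.10 ± 0.06. A second ergosterol biosynthesis protein (-0.10 ± 0.05) and a gene possibly involved in the pathway (-0.06 ± 0.05) completed the group. Without deletion replicate 2, the C-methyltransferase and the C-24(28) reductase passed as lower.

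Counted together, 3 of the 14 features were higher and 2 were lower, against 34% and 29.8% of all array genes. The higher ones include both lanosterol synthase features, which are 1 locus. The median log2 fold change was -0.06. After length adjustment 3 were higher and 6 were lower, against 28.6% and 35.2% of all array genes. The median was then -0.10. The 4 features that were lower there alone were the C-14 reductase, the C-24(28) reductase, the second ergosterol biosynthesis protein and the gene possibly involved in the pathway. Many of these genes lie near the top of the scale, with a median wild-type log2 intensity of 15.28 against 14.38 over all array genes.

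Genes that store, release or bind sterols were mixed. A hypothetical protein with putative oxysterol binding (chromosome I, 1600324 to 1602571) rose 1.63-fold. It stood at 14.45 and 14.58 in the wild type against 15.26 and 15.19 in the deletion (0.71 ± 0.06, limma adjusted p = 0.000283), and its length-adjusted value was 0.45. The other oxysterol-binding family feature, on chromosome III, went from 15.48 and 15.51 to 15.30 and 15.40 (-0.15 ± 0.05) and did not pass, at adjusted p = 0.0561. Its length-adjusted value was -0.37 (limma adjusted p = 0.00181), and it passed as lower in 8 of 16 alternatives, the fit without deletion replicate 2 (-0.19) included. Oxysterol-binding proteins carry sterols and other lipids between membranes.

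The enzymes that join sterols to fatty acids as sterol esters also differed in sign. The acyl-CoA:sterol acyltransferase on chromosome I, 2297507 to 2299120, stood at 14.22 and 14.20 in the wild type against 14.62 and 14.52 in the deletion. It rose 1.28-fold (0.36 ± 0.06, limma adjusted p = 0.00229), with a length-adjusted value of 0.21. That call was lost with the length and signal trends removed together (0.15). The putative sterol O-acyltransferase 2 on chromosome III, 2402858 to 2404276, fell from 15.38 on both wild-type arrays to 15.22 and 15.18 (-0.18 ± 0.05, adjusted p = 0.0195). Its length-adjusted value was -0.30, and the call was lost with the second block alone, without wild-type replicate 1 and without wild-type replicate 2. A feature with weak similarity to a chick phosphatidylcholine-sterol acyltransferase stood at 0.04 ± 0.05 and did not pass, and was lower after length adjustment (-0.23).

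Of 3 features described as triglyceride lipase-cholesterol esterase, enzymes that release fatty acids from stored esters, 2 rose and 1 fell. The feature on chromosome III stood at 14.83 and 14.92 in the wild type against 15.19 and 15.12 in the deletion (0.28 ± 0.06, limma adjusted p = 0.00667). The feature on chromosome II, 2189306 to 2190860, rose by 0.17 ± 0.05 (adjusted p = 0.0225). That on chromosome II, 4234335 to 4235966, fell by 0.23 ± 0.06 on the log2 scale (adjusted p = 0.0177). After length adjustment neither rise passed (0.13 and 0.02), while the decrease stood at -0.39. Both calls on chromosome II were lost without wild-type replicate 1 and with the first block alone, and the rise there also without wild-type replicate 2, with the second block alone and with arrays centred on their median. In the whole group 4 of 8 features were higher and 2 were lower, against 34% and 29.8% of all array genes. After length adjustment 2 were higher and 4 were lower, against 28.6% and 35.2% of all array genes.

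In fatty acid metabolism 0 of 7 features passed the test in either direction (limma), where 34% of all array genes were higher and 29.8% were lower. At an unadjusted p under 0.05, 1 of the 7 was higher. Log2 fold changes ran from -0.11 to 0.16. The alpha and beta subunits of fatty acid synthase, which together build long-chain fatty acids, stood at -0.05 ± 0.05 and -0.11 ± 0.05. For the alpha subunit the values were 15.73 and 15.74 in the wild type against 15.73 and 15.64 in the deletion, and for the beta subunit 15.72 and 15.70 against 15.57 and 15.63. The alpha values overlapped between groups and the beta values did not. Acetyl-CoA carboxylase lies outside the 7 features, among the other lipid genes, and was looked up after values were seen. It was lower in the deletion, with a log2 change of -0.24 ± 0.05 (limma adjusted p = 0.0089). Its length-adjusted value was -0.57, and with the length and signal trends removed together it still passed as lower (-0.18).

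Acyl-CoA desaturase 1, which puts the double bond into saturated fatty acids, was at 15.95 and 15.93 in the wild type against 15.96 on both deletion arrays (0.02 ± 0.05). It lay next to the top of the scale. The putative fatty acid desaturase (0.06 ± 0.05) and the putative fatty acid hydroxylase (0.15 ± 0.06) did not pass, nor did the fatty acid CoA ligase (0.16 ± 0.08) and the putative long-chain-fatty-acid CoA ligase (-0.0046 ± 0.05), which activate fatty acids. The CoA ligase on chromosome II, 2851417 to 2853486, differed between deletion arrays, at 15.31 and 15.55, and passed as higher without deletion replicate 1 (0.28). The hydroxylase passed as higher without deletion replicate 2 (0.21), without the dimmest 25% of genes and with an intensity trend in limma's prior. The beta subunit passed as lower with that trend in the prior and with arrays centred on their median (-0.16).

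The fatty acid group had a median wild-type log2 intensity of 15.71, nearest of all the groups to the top of the scale. Both synthase genes are long, at 5529 and 6222 bp. After length adjustment they stood at -0.39 and -0.44 and passed (limma adjusted p = 0.000894 and 0.000669), and the long-chain-fatty-acid CoA ligase was lower at -0.25. With the length and signal trends removed together, 0 of the 7 passed.

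Phosphoinositide genes had 6 of 12 features higher and 2 lower, against 34% and 29.8% of all array genes. Their median log2 fold change was 0.20. Their median length was 2776 bp against 1194 bp over all array genes. After length adjustment 4 of 12 were higher and 3 were lower, against 28.6% and 35.2% of all array genes, with a median of -0.11. The strongest was vps34, the phosphatidylinositol 3-kinase of vacuolar sorting and autophagy (chromosome I, 4701438 to 4703843). It stood at 13.36 on both wild-type arrays and at 14.17 and 14.12 on the deletion arrays. The groups lay well apart, and vps34 rose 1.72-fold (0.79 ± 0.05, limma adjusted p = 0.000104). Its length-adjusted value was 0.51, and its blocks gave 0.93 and 0.65.

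The probable phosphatidylinositol-4-phosphate 5-kinase (chromosome I, 4033578 to 4035955), which makes the bisphosphate found at the plasma membrane, rose 1.41-fold. Its values were 14.54 and 14.62 in the wild type against 15.05 and 15.09 in the deletion (0.49 ± 0.05, limma adjusted p = 0.000499). Length adjustment left 0.22. A gene of putative phosphatidylinositol metabolism on chromosome I, 3099011 to 3100177, rose from 13.61 and 13.63 to 14.15 and 13.98 (0.45 ± 0.07, adjusted p = 0.00206). For this shorter gene the length-adjusted value was 0.41. It overlaps a neighbouring feature by 2 bases.

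Further kinases of the group lie in long genes. The feature with similarity to tra1, in budding yeast a transcription cofactor subunit of the same protein family without kinase activity, spans 11100 bp of chromosome II. It rose 1.51-fold, from 13.93 and 13.90 to 14.53 and 14.48 (0.59 ± 0.05, limma adjusted p = 0.00023), and its length-adjusted value was 0.28. With the signal trend removed as well it did not pass (0.12). The putative phosphatidylinositol kinase at 834969 to 840892 of chromosome II rose by 0.22 ± 0.06 (adjusted p = 0.0238), but stood at -0.12 without passing once the trend was removed. That call was lost too with arrays centred on their median, with the first block alone and without wild-type replicate 1.

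A feature that the array describes as a putative phosphatidylinositol 3-kinase did not pass (0.12 ± 0.05). Both features described as putative phosphatidylinositol 4-kinases (0.12 ± 0.07 and -0.0035 ± 0.05) did not pass either. After length adjustment all 3 were lower, at -0.22, -0.19 and -0.34. The 4-kinase on chromosome I passed as higher without deletion replicate 2. The synaptojanin-like phosphatase, which removes phosphates from these lipids, rose by 0.21 ± 0.06 (limma adjusted p = 0.0237), but not after length adjustment (-0.12). That call was lost too with arrays centred on their median, with the first block alone, and without wild-type replicate 1 or deletion replicate 2. The phosphodiesterase that cleaves phosphatidylinositol bisphosphate stood at 0.19 ± 0.07, near the threshold (limma adjusted p = 0.0512), and its call depended on the setting. It passed as higher in 7 of 16 alternatives, among them the replicate number as a block (adjusted p = 0.0264), quantile normalization and the fit without deletion replicate 1 (0.26). With the length and signal trends removed together it passed as lower (-0.24, adjusted p = 0.0314).

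The features of the group that fell were its shortest ones. A FYVE zinc finger protein, of a class that binds phosphatidylinositol 3-phosphate, fell from 13.10 and 13.08 to 12.83 and 12.85 (-0.25 ± 0.05, limma adjusted p = 0.0048). A putative phosphatidylglycerol/phosphatidylinositol transfer protein fell from 14.88 and 14.95 to 14.64 and 14.61 (-0.29 ± 0.05, adjusted p = 0.0035). Their lengths were 840 and 567 bp. Neither passed after length adjustment, at -0.11 and -0.05, and the former did not pass with the second block alone.

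Among features of the glycolipid anchor, 2 of 6 were higher and 2 were lower, against 34% and 29.8% of all array genes. After length adjustment 1 was higher and 3 were lower, against 28.6% and 35.2% of all array genes. The 2 that fell without this adjustment held the lowest values of all 59. The phosphatidylinositol-glycan class C feature (chromosome III, 1195836 to 1196970), a subunit of the enzyme that starts anchor synthesis, fell 1.85-fold. It stood at 14.91 and 14.98 in the wild type against 13.93 and 14.18 in the deletion (-0.89 ± 0.09, limma adjusted p = 0.00042). Length adjustment left it at -0.90. A short, dim feature similar to a glycosylphosphatidylinositol anchor gene (chromosome II, 2736920 to 2737578) fell from 10.01 and 10.10 to 9.18 and 9.27 (-0.83 ± 0.06, adjusted p = 0.000139), with a length-adjusted value of -0.62.

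A gene described as N-acetylglucosaminyl-phosphatidylinositol, with the rest of its name missing (chromosome II, 1202452 to 1204023), rose 1.59-fold. Its log2 intensity went from 12.68 and 12.50 to 13.25 and 13.28 (0.67 ± 0.07, limma adjusted p = 0.000488), and the length-adjusted change was 0.52. The anchor attachment protein, which joins finished anchors to proteins, rose by 0.21 ± 0.05 (adjusted p = 0.0103). Its length-adjusted value was 0.04, and it did not pass without wild-type replicate 1, without wild-type replicate 2 or with the first block alone. The deacetylase of the second step (0.05 ± 0.07) and a surface glycoprotein similar to yeast gas1 (-0.08 ± 0.05) did not pass. The gas1-like feature passed as lower after length adjustment (-0.24, limma adjusted p = 0.00574) and with arrays centred on their median. The deacetylase passed as higher with the length and signal trends removed together (0.16, adjusted p = 0.0484).

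Sphingolipid genes were represented by 2 features, which moved in opposite directions. A protein of sphingomyelinase family similarity (chromosome II, 2743355 to 2744461) stood at 14.67 and 14.71 in the wild type against 15.32 and 15.24 in the deletion. Enzymes of that family break down sphingolipids, and this one rose 1.5-fold (0.59 ± 0.05, limma adjusted p = 0.000291). The putative sphingoid base-phosphate phosphatase (chromosome I, 2590496 to 2591839), which dephosphorylates long-chain bases, stood at 15.29 and 15.19 in the wild type against 14.81 and 14.77 in the deletion. It fell 1.37-fold (-0.46 ± 0.06, adjusted p = 0.000875). Their length-adjusted values were 0.58 and -0.56. Features described as serine palmitoyltransferase lie among the other lipid genes, on chromosomes I and II, and were looked up after values were seen. They did not pass (0.13 ± 0.05 and -0.14 ± 0.05), but did after length adjustment (0.29 and -0.31).

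**Figure D3:**
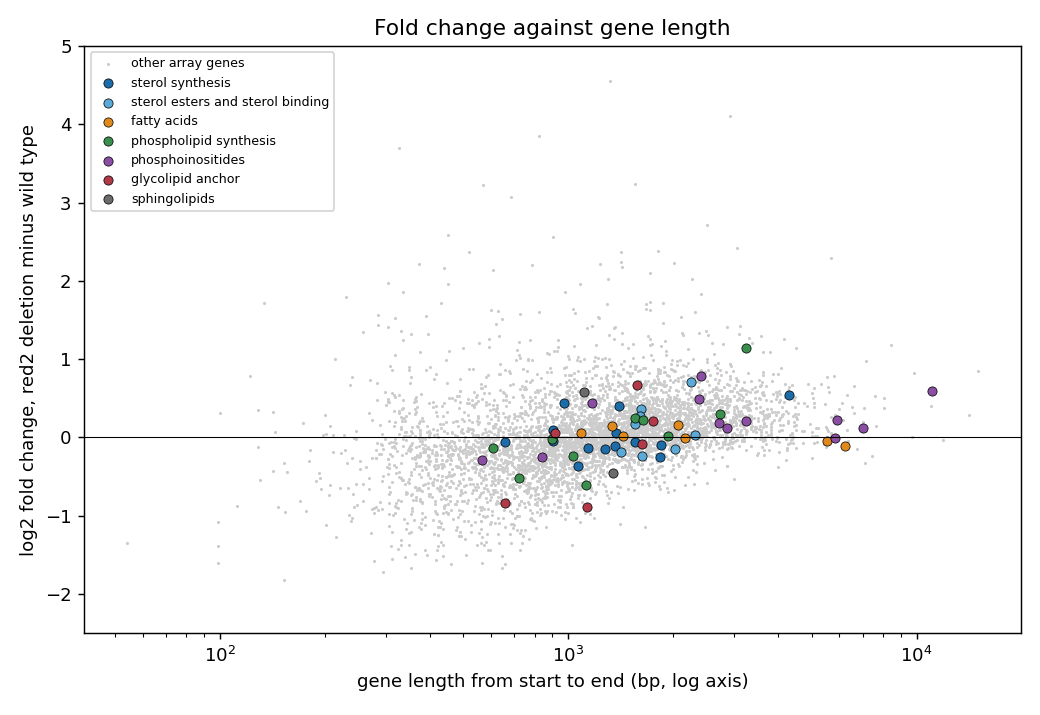
Log2 fold change, red2 deletion minus wild type, against gene length on a log axis, with the lipid features coloured by role over the other array genes in grey; 1 array gene below the plotted range is not shown. The phosphoinositide features run from 567 bp, at a log2 fold change of -0.29, to 11100 bp, at 0.59.

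The counts as a whole changed with length adjustment. The middle range of the members' lengths ran from 1115 to 2280 bp, and of all array genes in that range 40.8% were higher and 15.6% were lower, with a median log2 fold change of 0.08. After length adjustment, 12 of the 59 lipid features were higher and 24 were lower, with a median of -0.11. Of all array genes, 28.6% were then higher and 35.2% were lower, with a median of -0.04. Of the 20 rises 9 did not pass there, and of the 12 decreases 2 did not, while 14 features not called before were then lower and 1 was higher. The feature that was then higher was the C-5 sterol desaturase, at 0.20.

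The members share little in position. Chromosome I carries 26, chromosome II 27 and chromosome III 6. Lanosterol synthase and the acyl-CoA:sterol acyltransferase, separated by 10228 bp, both rose. The anchor-like feature and the sphingomyelinase family gene on chromosome II, separated by 5776 bp, went in opposite directions, at -0.83 and 0.59. The sphingoid base-phosphate phosphatase is the lipid gene nearest to the feature lost in the deletion, 11431 bp away. Between them lie 5 array genes with log2 fold changes from -0.32 to 2.22.

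Other array genes whose descriptions point to lipids, inositol, isoprenoids or coenzyme A numbered 70, and the words also took unrelated genes such as tel1. Of these, 20 were higher and 20 were lower, 28.6% each way against 34% and 29.8% of all array genes, and their median log2 fold change was 0.01. After length adjustment 17 were higher and 28 were lower, where 28.6% and 35.2% of all array genes were. The highest was tel1, a protein kinase of telomere length control that the array calls a phosphatidylinositol kinase, at 1.19 ± 0.06 (limma adjusted p = 6.09e-05). A carboxylesterase-lipase family member (0.91 ± 0.05) and mitochondrial glycerol-3-phosphate dehydrogenase (0.79 ± 0.05), which oxidises glycerol phosphate, followed. The lowest was the probable acyl-coenzyme A binding protein, which carries activated fatty acids.

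The acyl-coenzyme A binding protein stood at 14.44 on both wild-type arrays and at 13.54 and 13.66 in the deletion (-0.84 ± 0.06, limma adjusted p = 0.000139). It is only 321 bp long and its length-adjusted value was -0.59. A zinc finger protein possibly involved in palmitoylation (-0.73 ± 0.06) and a cytochrome b5 (-0.72 ± 0.06), an electron carrier that serves lipid desaturation, were the next lowest.

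The steps before squalene lie outside the 59 features, and their 10 genes were looked up after values were seen. Of these, 0 were higher and 5 were lower (limma), counts that were the same at an unadjusted p under 0.05, with a median log2 fold change of -0.11. Over all array genes 34% were higher and 29.8% were lower. Isopentenyl-diphosphate isomerase, which makes the reactive isoprene unit, fell by 0.50 ± 0.05 on the log2 scale (adjusted p = 0.000429). The farnesyl pyrophosphate synthetase on chromosome I fell by 0.36 ± 0.06, and that on chromosome II stood at -0.07 ± 0.06 without passing. Farnesyl-diphosphate farnesyltransferase, which joins farnesyl units to squalene, fell by 0.31 ± 0.05. Diphosphomevalonate decarboxylase (-0.24 ± 0.07) and phosphomevalonate kinase (-0.15 ± 0.05) fell as well, and HMG-CoA reductase, the regulated step of the pathway, stood at 0.03 ± 0.05. The decarboxylase and kinase calls were lost without wild-type replicate 1, without wild-type replicate 2 and with the second block alone, and the kinase call also without deletion replicate 2 and with the replicate number as a block. After length adjustment 0 were higher and 7 were lower, against 28.6% and 35.2% of all array genes. Of those 7, HMG-CoA reductase (0.01) and hydroxymethylglutaryl-CoA synthase (-0.03) did not pass with the length and signal trends removed together, while the others did.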

How the data were processed

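RNA of 4 samples was labelled with Cy3 and hybridised to 1-colour NimbleGen arrays, per the labels. The authors deposited linear intensity values. Per the submitters' processing notes these were made with RMA, with neither its version nor its steps stated. The value table and the pair tables held equal values at all 39976 positions, and the deposited ratio of deletion to wild type equals the quotient of the intensity columns (largest relative difference 2.75e-07) and was not used further. No source used here says what the 2 blocks of a gene are, and they were averaged as log2. Groups followed the sample titles. Members were found by words in the description and split into roles by hand from the descriptions; the glycolipid anchor group was added to the planned roles. Chromosome numbers follow the RefSeq accessions in the table.

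The fit was limma 3.58.1 (R 4.3.3; lmFit, eBayes) on log2 values of all 4997 array genes, with a genotype term alone, two-sided, Benjamini-Hochberg adjusted, threshold 0.05, with no filter or pseudocount. Errors after ± are limma's standard errors. The fit and the removal of the trend were tested on simulated data; the pass mark for the latter was changed from a correlation to the remaining slope after the first mark was missed. For length-adjusted values, each array's difference from the gene means was fitted on log2 length by loess (span 0.5) and the curve subtracted. The rule for naming took the 12 largest changes in either direction, for each role up to 4 with the smallest p and the one nearest 0, and 3 other lipid genes in each direction; the remaining members were named after their values were seen. Members, lists and alternatives were chosen with earlier results of these data known. The alternatives were other scalings (quantile, centred arrays), no dim genes, an offset of 32, single blocks, removal of the length or signal trend, a replicate block, an intensity trend in limma's prior, a stricter threshold and leaving out single arrays.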

Additional observations from a re-analysis of the deposited data

How the results depend on the processing

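Of the 32 lipid features past the threshold, 15 (9 higher, 6 lower) kept their call in all of the 16 alternatives in which they were measured, and 0 turned to a call of the opposite sign. Of the 27 that did not pass, 6 stayed so in every alternative and 21 passed in at least 1. The count of higher members, 20, went to 12 with the gene length trend removed, 12 with the length and signal trends removed together and 13 at a threshold of 0.01. The count of lower members, 12, went to 24 with the length trend removed, where 35.2% of all array genes were lower. The balance also turned with arrays centred on their median, to 16 higher and 17 lower, for which no whole-array count is given. With both trends removed it turned to 12 higher and 18 lower. The whole array turned there too, from 1699 higher and 1487 lower to 1342 higher and 1606 lower of 4997. With the replicate number as a block 21 were higher and 12 lower, the added one being the bisphosphate phosphodiesterase, and same-numbered arrays did not deviate together (r = -0.04). The single member at least 2-fold higher, phosphatidylserine decarboxylase 2, left 0 without the dimmest 25% of genes, which leaves it out by construction, and 0 with the length trend or both trends removed. A member became at least 2-fold lower, 1 in each case, with quantile normalization and with both trends removed (the dim anchor-like feature), and without red2 deletion replicate 2 (phosphatidylinositol-glycan class C).

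The median log2 fold change of the members, 0.036, went to 0.0262 with quantile normalization, -0.0196 with arrays centred, 0.026 without the dimmest genes, 0.0736 with the second block alone, -0.108 with the length trend removed and -0.0254 with both trends removed. Leaving out 1 array at a time gave 14 to 21 members higher, 9 to 16 lower, 1 at least 2-fold higher, 0 to 1 at least 2-fold lower, and a median of 0.0141 to 0.0418, on the assumption that a lone array varies as the other group does.

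With the length trend removed, signs of some features not called before turned to lower values that passed. These were the CDP-alcohol phosphatidyltransferase (-0.188), the feature similar to chick acyltransferase (-0.231) and the feature described as phosphatidylinositol 3-kinase on chromosome II (-0.219). The phosphatidylinositol 4-kinase on chromosome I (-0.191) and HMG-CoA reductase (-0.288) were the others. Among features called before, signs turned without passing for the phosphatidylinositol kinase at 834969 (-0.115), the synaptojanin-like phosphatase (-0.116) and phosphatidylethanolamine methyltransferase (-0.000443). With both trends removed, the first 2 of these lower values were -0.262 and -0.192, and the bisphosphate phosphodiesterase was lower (-0.243). The 3-kinase (-0.128), the 4-kinase (-0.142) and HMG-CoA reductase (0.0078) did not pass there. Among features called before, signs also turned there, without passing, for the transfer protein (0.0118), the anchor attachment protein (-0.0327), the kinase at 834969 (-0.0351), the triglyceride lipase at 2189306 (-0.0278) and phosphatidylglycerophosphate synthase (-0.131). The causes were not tested. The files give no call of signal over background, so dim features have no stated floor.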
